A study of Homo sapiens with 3 samples.

Results

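The replication-dependent histone genes encode the linker histone H1 and the core histones H2A, H2B, H3 and H4 that package newly copied DNA. They were identified in the RNA sequencing counts of untreated H9 cells by their symbols in GENCODE release 44, as protein-coding genes named H1-1 to H1-6 or with an H2A, H2B, H3 or H4 cluster symbol such as H2AC8. The rule found 69 genes in GENCODE, and 65 of the 69 had a row among the 58051 identifiers with counts listed. H2AC18, H2AC19, H3C2 and H3C3 had no row under their GENCODE identifier and were not analysed here. H9 cells are a long-established line of human embryonic stem cells (hESC), here wild type and without treatment, grown in Essential 8 Flex medium. Total RNA was sequenced in 3 replicates after depletion of ribosomal RNA, which does not select for poly(A) tails. Totals of 10390984, 12024802 and 8655155 counts were deposited for replicates 1, 2 and 3. No source says whether the replicates were separate cultures, so the spread between them may be technical. With 1 condition there was no comparison between treatments, and no test was made. Every level is a description of these cells.

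Most messenger RNAs end in a poly(A) tail, but those of replication-dependent histones end just behind a short stem-loop that the stem-loop binding protein SLBP recognizes. Their genes lack introns, lie together in clusters, and are transcribed mainly while DNA is being copied, when the nuclear factor NPAT drives them at the histone locus body. After S phase these messages are rapidly degraded. In bulk RNA, fewer cells in S phase and less histone message per cell cannot be told apart. TPM, the level used below, is the count divided by the summed length of a gene's exons and scaled to the same sum in each replicate. As a check of the label hESC, POU5F1, NANOG, SOX2, LIN28A and DNMT3B had means from 275 to 2576 TPM, and the lineage markers GATA6, SOX17, TBXT, PAX6 and CDX2 from 0 to 1.75 TPM.

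The stem-loops are printed because they set this class of message apart. They were sought on the sense strand within 200 bases after the stop codon, as 16 letters that begin with GG, with 6 Watson-Crick pairs around a loop of 4 letters of which the first and the third are T. Such a stretch was present in 67 of 69 histone genes and in 7 of 19855 other protein-coding genes, or 0.0353%. It began between 23 and 68 bases after the stop codon, with a median of 36 bases. The 16 letters took 8 forms, the most common in 40 genes of the H1, H2A, H2B and H3 types. The form printed for H4C5 was found in 10 genes, all of type H4. In the 5 stretches below, from the analysed gene with the highest level of each type, the stem-loop is in capitals. They were read from GRCh38 in the direction of transcription.
H1-5 (chr6:27866792-27866817, minus strand): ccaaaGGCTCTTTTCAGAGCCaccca
H2AC8 (chr6:26217412-26217437, plus strand): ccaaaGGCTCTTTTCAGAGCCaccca
H2BC9 (chr6:26252050-26252075, plus strand): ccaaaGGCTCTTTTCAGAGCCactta
H3C11 (chr6:27871845-27871870, minus strand): caaaaGGCTCTTTTCAGAGCCcctca
H4C5 (chr6:26204996-26205021, plus strand): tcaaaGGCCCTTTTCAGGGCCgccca

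H2AC11 and H2AC15 did not meet this rule. When 1 G-T pair was allowed in the stem, a search chosen after these sequences had been seen, all 69 histone genes and 37 of 19855 other protein-coding genes, or 0.186%, held a match. Both stretches are shown with the 16 letters in capitals.
H2AC11 (chr6:27133510-27133535, plus strand): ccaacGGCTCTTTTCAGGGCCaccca
H2AC15 (chr6:27837880-27837905, minus strand): aaaaaGGTTCTTTTCAGAGCCaccta

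Neither gene was without signal. H2AC11 had 937, 921 and 1077 TPM in replicates 1, 2 and 3, and H2AC15 had 240, 231 and 314 TPM. The canonical transcript consisted of a single exon in 69 of 69 histone genes, against 5.23% of the other protein-coding genes. AATAAA, the usual signal for adding a poly(A) tail, lay within 200 bases after the stop codon in 7 of 69 histone genes, or 10.1%, and in 18.7% of the others. The 7 were H1-2, H2AC17, H2AC18, H2AC19, H2BC5, H4C11 and H4C12. Other protein-coding genes had a median canonical transcript of 2891 bases and a median coding length of 1376 bases. Their signal may therefore lie beyond 200 bases, and the shares do not compare the use of such signals.

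The histone genes held 0.857%, 0.834% and 0.921% of all counts in replicates 1, 2 and 3, a mean of 0.871 ± 0.0447% (SD, n = 3). Exact 95% binomial intervals of these shares were 0.852% to 0.863%, 0.829% to 0.839% and 0.914% to 0.927%. PCR copies inflate counts, so these intervals hold for counting error alone. The interval of replicate 3 lay above the other two. In TPM, which weights short genes more, they held 5.56 ± 0.220% of all genes and 6.88 ± 0.287% of protein-coding genes (SD, n = 3). The median over the 65 genes was 492, 505 and 533 TPM, and the median over 19629 protein-coding genes was 6.88, 7.03 and 7.33 TPM.

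By the classes of the study, applied to these values, 53 of the 65 genes were in the high expression class, which began at 27.0 TPM and took 28.8% of all protein-coding genes. Medium, low and nonexpressed classes took 3, 7 and 2 histone genes. With coding length or the canonical transcript the high class also held 53 histone genes, but without division by length it held 44. The levels and ranks in TPM given below rest on division by exon length. A mean above 1000 TPM was reached by 21 of the histone genes, out of 88 protein-coding genes at that level, and 23 were among the 100 protein-coding genes with the highest means. A further 29 lay between 100 and 1000 TPM, 5 between 10 and 100 TPM and 10 below 10 TPM. More than 3 counts in every replicate, the most that a count of 0 allows, were found for 56 genes.

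**Figure D1:**
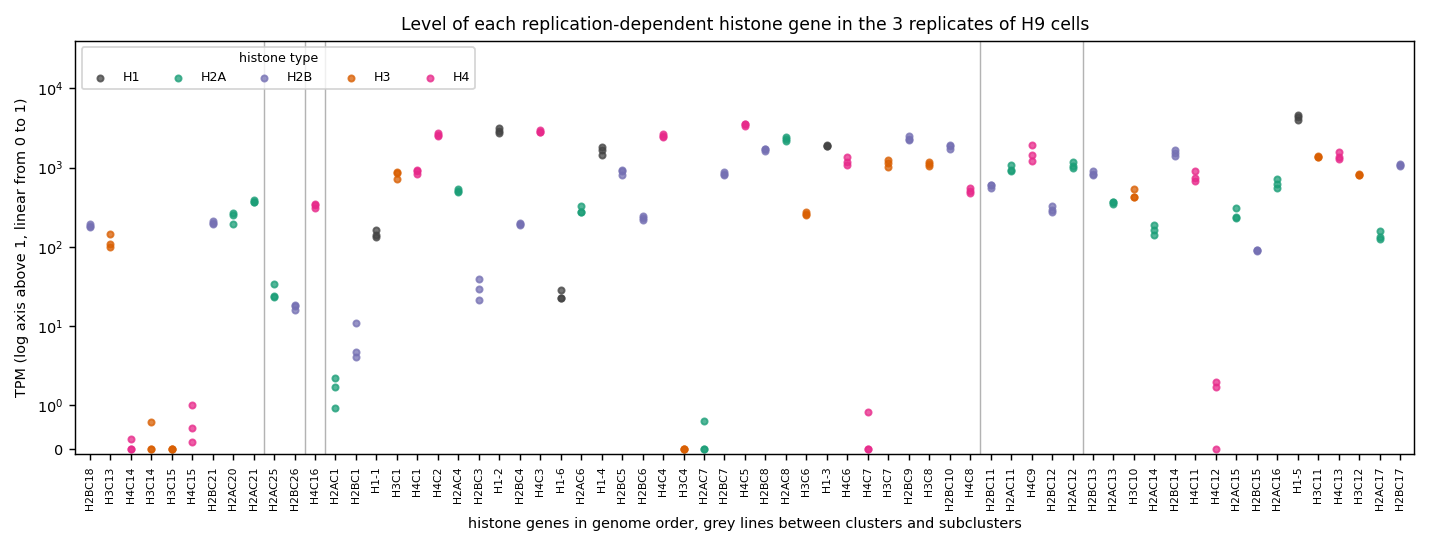
TPM of the 65 histone genes with counts, on an axis that is logarithmic above 1 and linear from 0 to 1, with 1 point per replicate, colored by histone type. Genes are in genome order and grey lines separate the clusters on chromosomes 1 and 12 and the 3 groups on chromosome 6; points reach 4648 TPM for H1-5, and H4C14, H3C14, H3C15, H4C15, H3C4, H2AC7, H4C7 and H4C12 lie near 0.

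The linker histone genes held the highest single level and spread widely around it. H1 binds the DNA that enters and leaves the nucleosome. H1-5 had 4342, 4013 and 4648 TPM in replicates 1, 2 and 3, the highest level of any histone gene and rank 4 among protein-coding genes. H1-2 had 2904, 2758 and 3122 TPM. H1-3 had 1908, 1900 and 1860 TPM. H1-4 followed with 1675, 1439 and 1821 TPM, below H1-3 in every replicate. Much lower was H1-1, with 140, 166 and 135 TPM. H1-6, a variant known from testis, had 22.8, 22.4 and 28.6 TPM from 43, 49 and 46 counts. The ranges of no 2 neighbors in this order overlapped, and H1-5 and H1-2 gave 39.5% and 26.7% of the H1 total. Each of the 6 genes encodes a protein of its own, and their exons were found at 1 place in the genome throughout.

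H2A genes were led by H2AC8, with 2295, 2162 and 2474 TPM. H2AC12 had 1049, 985 and 1192 TPM and H2AC11 the values given above, so that their ranges overlapped. H2AC16 was lower, at 614, 553 and 712 TPM. From there the order ran over H2AC4 (513 TPM), H2AC21 (373), H2AC13 (362), H2AC6 (296), H2AC15 (262), H2AC20 (239), H2AC14 (164), H2AC17 (139) and H2AC25 (27.1), as means. Neighbors overlapped for H2AC21 and H2AC13, for H2AC6, H2AC15 and H2AC20, and for H2AC14 and H2AC17. H2AC1, a testis gene, had 2.21, 0.949 and 1.72 TPM from 6, 3 and 4 counts. The 17 H2A genes encode 11 different proteins, and the protein shared by most, from H2AC11, H2AC13, H2AC15, H2AC16 and H2AC17, came from 32.1 ± 0.574% of H2A TPM (SD, n = 3). A larger share, 38.4 ± 0.708%, came from the protein of H2AC4 and H2AC8. Their coding sequences match at 83.3% of positions.

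Among H2B genes H2BC9 was highest, with 2243, 2285 and 2479 TPM. H2BC10 had 1915, 1740 and 1855 TPM, H2BC8 had 1706, 1698 and 1642 TPM and H2BC14 had 1679, 1515 and 1419 TPM. H2BC9, H2BC10 and H2BC8 did not overlap, while H2BC8 and H2BC14 did. Means between 587 and 1075 TPM were found for H2BC17, H2BC5, H2BC13, H2BC7 and H2BC11, and those between 91.6 and 299 TPM for H2BC12, H2BC6, H2BC21, H2BC4, H2BC18 and H2BC15. H2BC3 had 29.2, 39.4 and 21.3 TPM, the widest relative spread of a histone gene in the high class (coefficient of variation 30.3%). H2BC26 had a mean of 17.4 TPM, and H2BC1, a testis gene, had 4.73, 4.07 and 11.1 TPM. No H2B gene was at 0 in any replicate. The 18 genes encode 14 proteins that are nearly all of 126 residues, and 1 of them is made by H2BC4, H2BC6, H2BC7, H2BC8 and H2BC10, which gave 37.1 ± 0.235% of H2B TPM (SD, n = 3).

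Among the analysed genes, which leave out H3C2 and H3C3, H3 had the lowest leading gene of the 5 types. H3C11 had 1371, 1422 and 1381 TPM. H3C7 had 1132, 1026 and 1254 TPM and H3C8 had 1037, 1164 and 1112 TPM, with overlapping ranges. H3C1 followed with 730, 859 and 890 TPM, which overlapped with H3C12 at a mean of 816 TPM. H3C10, H3C6 and H3C13 had means of 462, 263 and 118 TPM. The genes of chromosome 6 all encode the same H3 protein, known as H3.1, and those of chromosome 1 encode a second, H3.2. The first came from 98.1 ± 0.307% of H3 TPM (SD, n = 3), with 8 of its 10 genes analysed, and the second from 1.93%, nearly all of it H3C13. The 3 genes of H3.2 share most or all of their sequence with other places in the genome, as described below. How such reads were counted is not given, so the share of H3.2 is uncertain.

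H4 genes reached the highest levels of the core histones. H4C5 had 3528, 3570 and 3331 TPM, and H4C3 had 2971, 2829 and 2818 TPM. H4C2, with 2530, 2751 and 2570 TPM, and H4C4, with 2455, 2688 and 2520 TPM, overlapped. H4C9 (mean 1541 TPM), H4C13 (1412), H4C6 (1215), H4C1 (899), H4C11 (777), H4C8 (516) and H4C16 (332) followed. H4C9 varied more than any of these, with 1458, 1218 and 1946 TPM. The same H4 protein of 103 residues is encoded by 14 of the 15 genes, whose coding sequences match at 79.0% to 100% of positions, with a median of 83.8%. H4C7, the other gene, encodes 98 residues and had 0, 1 and 0 counts.

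The types were not equally represented. H4 genes held 32.8 ± 0.511% of the TPM of the 65 genes (SD, n = 3) and H2B genes 23.2 ± 0.598%. H1, H2A and H3 genes held 19.7 ± 0.453%, 13.2 ± 0.555% and 11.02 ± 0.300%, respectively. Summed H4 levels were 3.04, 2.96 and 2.94 times those of H3 in replicates 1, 2 and 3. Summed H2B levels were 1.81, 1.82 and 1.63 times those of H2A. A nucleosome holds the core histones in equal numbers. H3C2, H3C3, H2AC18 and H2AC19 were not analysed, and what they would add to the H3 and H2A sums is not known here. Over exons of the canonical transcript alone, the mean ratios were 2.57 for H4 to H3 and 2.18 for H2B to H2A.

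**Figure D2:**
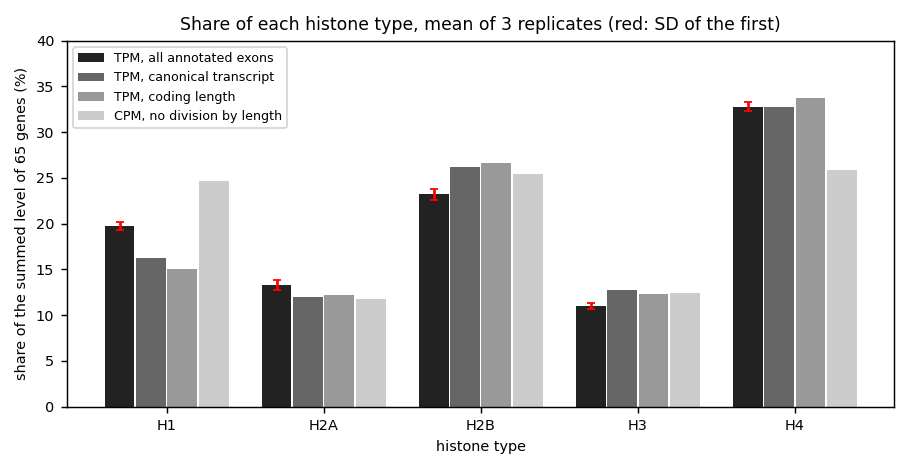
Share of the summed level of the 65 analysed genes held by each histone type, as the mean of the 3 replicates, for 4 ways of treating gene length; red bars are the SD over replicates of the first. H4 genes hold 25.8% to 33.8%, ahead of H2B genes by less than the SD without division by length (25.8% against 25.4%), and H1 genes range from 15.1% with coding length to 24.6% without division by length.

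Length mattered because 16 of the 69 genes have more than 1000 bases of annotated exons, while the canonical transcript of 15 of these is shorter than 1000 bases. H2BC26 has 5002 bases of exons and a canonical transcript of 456 bases, H2BC15 has 4265 and 542, and H2BC4 has 2881 and 460. With canonical lengths throughout, H3C6 moved from rank 7 to the first place among the analysed H3 genes, at 884 TPM against 840 TPM for H3C11. H4C8 moved from 516 to 1647 TPM and H4C16 from 332 to 1194 TPM. H1-5, H2AC8, H2BC9 and H4C5 stayed the highest of their types. Which transcript the reads came from was not tested.

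The genes form 4 clusters when neighbors within 1 Mb are joined. On chromosome 6, between 25723397 and 27893891, lie 55 genes, of which 53 had counts. They held 97.3 ± 0.0384% of the histone TPM (SD, n = 3), or 93.9 ± 0.0617% of the histone counts. The median of their mean levels was 826 TPM, and 46 of 53 were in the high class. The 11 genes at chromosome 1, 149782689 to 149887965, gave 2.01 ± 0.0151% from 9 analysed genes, with H2AC21 the highest at 373 TPM. H2AC25 and H2BC26, farther along chromosome 1 from 228434777, gave 0.0801%, and H4C16 on chromosome 12, alone from 14767999 to 14771131, gave 0.597%. Of the histone counts, these 3 clusters held 3.32%, 0.399% and 2.37%, respectively. In the cluster of 11 genes, no stretch of 50 exon bases of H4C14, H4C15, H3C14, H3C15, H2AC18 or H2AC19 is unique in the genome. For H2BC18 and H3C13, 29.4% and 27.9% of such stretches are unique. How reads from shared sequence were counted is not given, so the share of this cluster is uncertain.

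Gaps of over 300 kb divide the chromosome 6 cluster into 3 groups. The first, with 34 genes up to position 26285638, gave 63.5 ± 1.23% of the histone TPM (SD, n = 3), and held all H1 genes but H1-5. The second, 5 genes from 27125897 to 27147562, gave 8.05 ± 0.774%, with no level under 279 TPM in any replicate. The third, 16 genes from 27807479, gave 25.7 ± 0.502% and holds H1-5 and H3C11. Between the first and the last histone gene of this cluster lie 20 other protein-coding genes with counts. Their median was 1.23 TPM, their highest 74.9 TPM, and 2 of 20 were in the high class. The median of the histone genes lay above the highest level of these neighbors.

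Of the 65 genes, 8 had fewer than 10 counts over all replicates together, and 5 of these share most of their sequence with another place in the genome. To measure this, each stretch of 50 bases in the exons was searched for in the whole genome on both strands. It was found at a single place for 100% of stretches in 29 of 69 genes, and for at least 90% in 53. In H4C14, H4C15, H3C14 and H3C15 it was so for 0%: H4C14 and H4C15 are copies of each other over the whole length, and so are H3C14 and H3C15. H4C14 had 0, 0 and 1 counts, H4C15 had 5, 1 and 2, H3C14 had 0, 1 and 0, and H3C15 had 0, 0 and 0. H4C12 shares 92.6% of its stretches with H4C11 and had 2, 2 and 0 counts. H4C11, of which only 7.94% is unique, had 750, 807 and 781 counts nevertheless. How reads that match several places were counted is not given in the sources used here, and its part in these levels was not tested.

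H4C7, H2AC7 and H3C4 were near 0 with unique sequence. H2AC7 had 0, 1 and 0 counts and H3C4 had 0, 0 and 0. Of their exons, 85.3% and 96.6% lie within exons of ENSG00000282988 on the same strand, a protein-coding gene model that had 5, 8 and 6 counts. How reads in exons of more than 1 gene were counted is not given either. H4C7 overlaps no other gene, and a count of 0 still allows 2.99 TPM in replicate 1 at its length. H2AC7 faces H2BC7, which had 815, 822 and 873 TPM, across 222 bases. H2AC17 and H3C12 also share exons on the same strand, over 71.05% and 40.3% of their lengths, so their levels are uncertain. The same holds for H2AC13 and H2AC14, where 36.5% and 33.7% of stretches are unique, and for H2BC12, H2BC18 and H3C13, with 42.8%, 29.4% and 27.9%. Exons of other genes on the opposite strand cover 30.9% of H2BC4, 28.2% of H2BC6, 15.3% of H2AC21, 13.3% of H4C8 and 9.84% of H2BC18. The strand setting of the counts is not given, so the levels of these genes are uncertain as well.

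**Figure D3:**
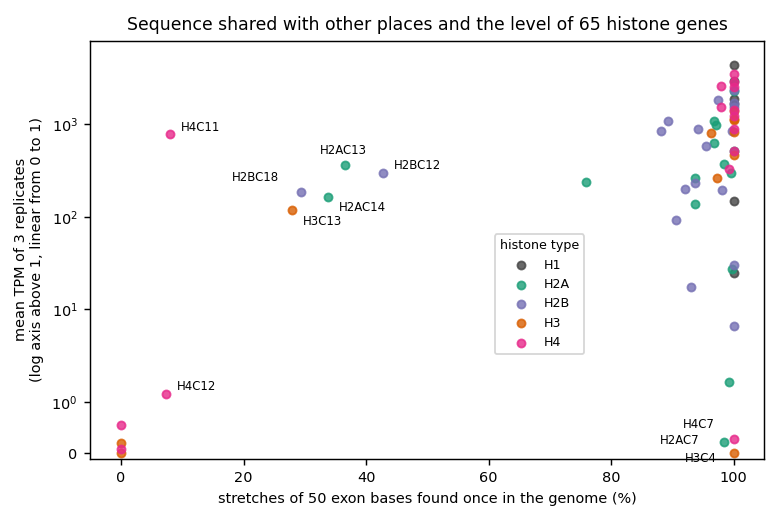
Mean TPM over 3 replicates of the 65 analysed genes, on an axis that is logarithmic above 1 and linear from 0 to 1, against the share of 50-base stretches of their exons found at a single place in the genome. The 4 genes at 0% lie below 1 TPM, H4C11 and H4C12 differ at 777 and 1.23 TPM with nearly the same share, and H4C7, H2AC7 and H3C4 lie near 0 at 98.5% to 100%.

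Many H2A and H2B genes start back to back and share the stretch between them, in which the TATA box (TATAAA), the CCAAT box (CCAAT) and the octamer bound by POU factors (ATTTGCAT) were sought on both strands. There were 12 such pairs, with 169 to 250 bases between the annotated starts and a median of 233.5. The 4 stretches below are printed from the H2A start to the H2B start as examples, chosen after their levels were seen, of pairs that are high, uneven or low, with matches in capitals.
H2BC8-H2AC8 (chr6:26216689-26216920, minus strand): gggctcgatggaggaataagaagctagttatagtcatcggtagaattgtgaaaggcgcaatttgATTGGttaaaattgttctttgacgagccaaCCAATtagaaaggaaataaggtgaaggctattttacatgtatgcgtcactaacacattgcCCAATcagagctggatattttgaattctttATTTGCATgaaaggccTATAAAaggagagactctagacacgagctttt
H2BC14-H2AC14 (chr6:27814778-27815021, plus strand): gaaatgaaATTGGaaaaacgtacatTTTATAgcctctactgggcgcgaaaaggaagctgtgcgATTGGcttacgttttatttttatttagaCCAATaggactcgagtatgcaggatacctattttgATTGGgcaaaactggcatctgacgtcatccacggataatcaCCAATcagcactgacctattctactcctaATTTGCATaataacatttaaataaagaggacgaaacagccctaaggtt
H2BC12-H2AC12 (chr6:27146856-27147105, minus strand): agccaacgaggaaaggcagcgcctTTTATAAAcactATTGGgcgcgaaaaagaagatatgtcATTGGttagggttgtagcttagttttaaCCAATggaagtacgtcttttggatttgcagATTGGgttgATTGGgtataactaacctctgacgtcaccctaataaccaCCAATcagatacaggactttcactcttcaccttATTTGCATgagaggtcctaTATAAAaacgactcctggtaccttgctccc
H2BC1-H2AC1 (chr6:25726563-25726776, plus strand): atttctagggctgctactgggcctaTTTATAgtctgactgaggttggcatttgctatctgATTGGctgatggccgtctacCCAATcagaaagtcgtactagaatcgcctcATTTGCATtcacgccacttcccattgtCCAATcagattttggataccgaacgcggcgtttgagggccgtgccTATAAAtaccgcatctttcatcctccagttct

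All 4 held the octamer and at least 3 CCAAT boxes, the low pair of H2BC1 and H2AC1 included. H2BC8 and H2AC8 were both high, the H2B gene at 0.743, 0.785 and 0.664 times the H2A gene in replicates 1, 2 and 3. H2AC14 had 163, 142 and 188 TPM, and H2BC14 was at 10.3, 10.7 and 7.53 times these values, although sequence shared with H2AC13 leaves H2AC14 uncertain. H2BC12 had 293, 279 and 327 TPM, or 0.279, 0.283 and 0.274 times H2AC12, and H2BC12 shares 47.8% of its stretches with a copy on chromosome 21. H2BC1 was above H2AC1 in all replicates, from 3 to 6 counts for H2AC1.

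Over the 12 pairs, the H2B gene was higher in every replicate in 5, the H2A gene in 6, and H2BC21 and H2AC20 changed order between replicates. The 5 were H2BC1, H2BC7, H2BC13, H2BC14 and H2BC17. With canonical lengths the H2B gene was higher in 9, since H2BC26, H2BC4, H2BC11 and H2BC15 have long annotated exons. H2BC14, H2BC17 and H2BC13 were higher than their partners, and H2BC8 and H2BC12 lower. In these pairs both lengths are the same for both genes, so the change of length could not alter their order. Of these genes, H2AC13, H2AC14, H2AC17 and H2BC12 have uncertain levels, as described above. H2BC17 was at 7.84 ± 1.02 times H2AC17 and H2BC13 at 2.35 ± 0.113 times H2AC13 (SD, n = 3). The rank correlation of the mean TPM of partners over the 12 pairs was 0.336 (Spearman's rho), as a description over points that share libraries.

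**Figure D4:**
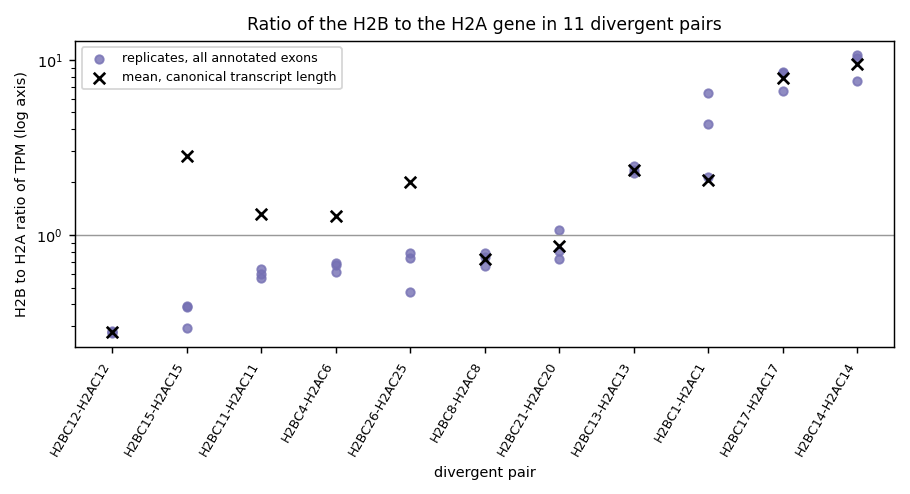
Ratio of the TPM of the H2B gene to that of the H2A gene in 11 divergent pairs, on a log axis, with 1 point per replicate and a cross for the mean ratio with canonical transcript lengths; the pair of H2BC7 and H2AC7 is left out, since H2AC7 was at 0 in 2 replicates. Mean ratios run from 0.279 for H2BC12 and H2AC12 to 9.51 for H2BC14 and H2AC14, and crosses of 4 pairs lie on the other side of 1.

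In RefSeq promoter windows, from 250 bases before to 50 after the start, 64 of the 69 genes had an entry, without H4C1, H4C3, H2AC12, H3C11 and H3C12. The RefSeq start lay within 100 bases of that in GENCODE for 61 of the 64, and 11702 and 2007 bases from it for H2BC6 and H3C4. TATAAA was present in 42 of 64, or 65.6%, against 9.63% of 15345 protein-coding promoters. CCAAT was present in all 51 windows of H1, H2A, H2B and H3 genes and in 3 of 13 windows of H4 genes, against 36.6% of all. The 3 were H4C6, H4C9 and H4C13. The octamer was present in 11 of 16 H2A and 14 of 18 H2B windows, in 1 of 11 H3 windows and in no H1 or H4 window, against 1.70% of all. Windows of divergent partners overlap, so their matches are not independent, and that 1 H3 window, of H3C4, overlaps those of H2AC7 and H2BC7. In 23 of 64 genes the window overlaps that of another.

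In 10 of 13 H4 windows CCAAT was not found. The 250 bases before the RefSeq start (GRCh38.p14) are printed for H4C5, the highest H4 gene, and for H4C7, which was near 0, with matches in capitals.
H4C5 (chr6:26204360-26204609, plus strand): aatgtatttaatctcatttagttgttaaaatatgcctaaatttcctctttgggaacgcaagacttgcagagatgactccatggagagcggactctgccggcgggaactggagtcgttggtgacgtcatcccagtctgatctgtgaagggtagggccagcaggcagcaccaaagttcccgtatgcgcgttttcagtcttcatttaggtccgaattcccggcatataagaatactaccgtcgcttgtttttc
H4C7 (chr6:26246997-26247246, minus strand): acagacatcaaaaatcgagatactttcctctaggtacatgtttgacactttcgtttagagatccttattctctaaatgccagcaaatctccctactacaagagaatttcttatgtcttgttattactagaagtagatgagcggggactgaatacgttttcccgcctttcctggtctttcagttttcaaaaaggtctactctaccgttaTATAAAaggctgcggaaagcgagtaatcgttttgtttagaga

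By exact letters, H4C5 held none of the 3 motifs and H4C7 held TATAAA. Near matches, such as the tataag in the H4C5 stretch, were not sought. Over all types, genes with TATAAA had a median of 362 TPM (39 genes) and those without it 516 TPM (21 genes). Genes with the octamer had 298 TPM (26 genes) and those without it 489 TPM (34 genes). These medians mix histone types. Within H1, H2B, H3 and H4 genes with TATAAA were also lower, at 1645, 443, 263 and 777 TPM (3, 12, 7 and 7 genes). Those without it had 2928, 511, 552 and 866 TPM (3, 6, 2 and 6 genes). The 2 H3 genes without it were H3C8 at 1104 TPM and H3C4 at 0 TPM. H3C13, H3C14, H3C15, H4C11 and H4C12 with TATAAA, and H4C14 and H4C15 without it, share most of their sequence with other places. The H3 and H4 medians are therefore uncertain, and H2A and H2B also include genes of uncertain level. H2B genes with the octamer had 443 TPM (14 genes) and those without it 471 TPM (4 genes). The 1 H3 gene with it, H3C4, was at 0 TPM, against 363 TPM without it (8 genes). Its RefSeq window lies 2007 bases from its GENCODE start and overlaps those of H2AC7 and H2BC7. Exons of another gene on the same strand cover 96.6% of H3C4, so its level of 0 is uncertain. Within H2A the orders for TATAAA and for the octamer were both the opposite. H2A genes had 329 TPM with TATAAA (10 genes) against 144 TPM without it (4 genes). With the octamer they had 296 TPM (11 genes) against 262 TPM without it (3 genes).

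The replicates were compared gene by gene on CPM, counts scaled to the total of the replicate alone. Over the 53 histone genes that had 100 or more counts in each replicate, the median absolute log2 ratio was 0.08 between replicates 1 and 2, 0.14 between 1 and 3 and 0.17 between 2 and 3. Over 9386 protein-coding genes it was 0.07, 0.10 and 0.10. Replicate 3 was higher than the mean of the others for 43 of the 53 histone genes, with a median log2 ratio of 0.16, against 49.7% of all protein-coding genes and a median of 0.00. All 13 H2A and all 8 H3 genes were higher in replicate 3, as were 12 of 16 H2B, 7 of 11 H4 and 3 of 5 H1 genes. Type medians ran from 0.10 for H2B to 0.27 for H2A.

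Base composition moved with this difference. Among other genes of like exon GC content, between 51.5% and 58.7%, 64.1% were higher in replicate 3, with a median log2 ratio of 0.05. Less the median of their GC bin, 34 of the 53 histone genes were still higher and their median was 0.10. Other genes with exons under 1000 bases had a median of 0.02. Across the 53 genes, Spearman's rho between GC content and the ratio was 0.433, a description over points that share 3 libraries. Of 9 replication-independent histone genes, which do not belong to the set, 3 had their highest TPM in replicate 3 (H1-10, H2AX and H3-3B) and 6 their lowest TPM. These counts use TPM while the ratios above use CPM, so they are not on the same measure. The part of the cell cycle in the higher levels of replicate 3 was not tested.

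**Figure D5:**
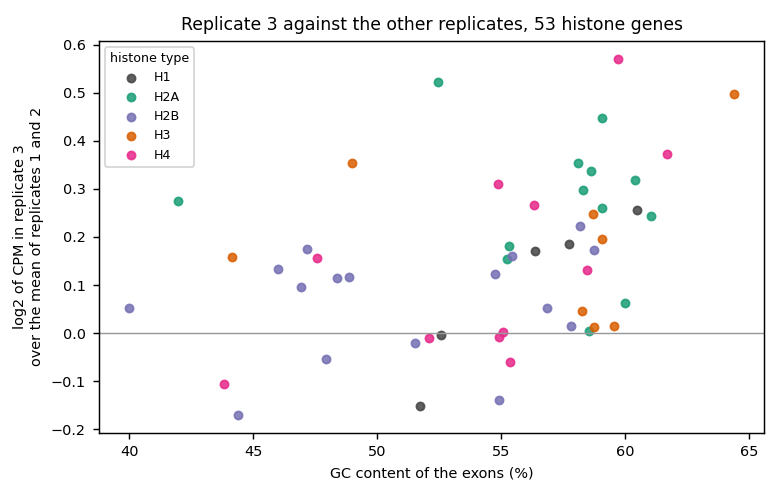
Log2 ratio of CPM in replicate 3 to the mean of replicates 1 and 2, against the GC content of the exons, for the 53 histone genes that had 100 or more counts in each replicate, colored by type. Points lie above 0 for 43 of 53 genes, including all 13 H2A and all 8 H3 genes.

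Replication-independent histones are not confined to the time when DNA is being copied, and are made mostly from messages with a poly(A) tail. H2AZ1, for the variant H2A.Z, was the highest of 9 examined, with 954, 1022 and 926 TPM, and H3-3A and H3-3B, which both encode H3.3, had 538, 580 and 527 TPM and 289, 282 and 298 TPM. H2AX, a variant phosphorylated at DNA breaks, had 239, 225 and 290 TPM, and its gene is among the 7 others with a stem-loop. CENPA, the centromeric H3, had 38.2, 39.8 and 32.6 TPM. Summed over genes, replication-dependent H3 was 7.00 ± 0.408 times H3-3A, H3-3B and CENPA (SD, n = 3), and replication-dependent H2A was 5.38 ± 0.507 times 5 variant genes. These ratios rest on length: with canonical transcripts they were 3.23 and 2.30, with coding length 1.31 and 1.19, and without division by length 1.08 and 0.956, alternatives added after the data were seen.

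Among 16 genes for factors that make, process or degrade histone messages, 11 were in the range of the high class. Their median was 49.1 TPM, against 492 to 533 TPM for the histone genes in the 3 replicates, and their highest mean, 178 TPM for SRRT, was above that of several histone genes. SLBP, which binds the stem-loop, had 126, 125 and 109 TPM, and NPAT had 32.8, 32.5 and 28.9 TPM. CASP8AP2, a further part of the histone locus body, had 37.5, 37.1 and 36.4 TPM. CPSF3, the nuclease that cuts the message, had 131, 141 and 121 TPM, while LSM11 and ZNF473, which belong to the U7 particle or bind it, had means of 8.44 and 7.21 TPM. RNU7-1, the U7 RNA itself, was at 0 counts in all replicates. Whether this library type recovers an RNA of its size was not tested. All 5 histone chaperone genes were in the high range, from 33.2 TPM for CHAF1B to 330 TPM for NASP, which carries H3 and H4 before they reach DNA.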

How the data were processed

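RNA was extracted from untreated H9 cells, depleted of ribosomal RNA and sequenced in 3 replicates. The authors trimmed the reads (Trim Galore 0.4.4) and aligned them to GRCh38 (TopHat2 2.1.1), per the labels, and deposited whole-number counts per Ensembl gene without normalization. The submitters' notes also name Cufflinks 2.2.1. Which tool counted the reads, and with which annotation and strand setting, is not given in the sources used here. Identifiers were joined to GENCODE release 44, and 98.1% matched.

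TPM was computed from the counts and the union of annotated exons. Unique sequence was measured with 50-base stretches of exons against GRCh38 on both strands. Stem-loops and promoter motifs were sought by exact letters, and promoter windows are those of RefSeq (GRCh38.p14). The search of 50-base stretches, TPM and the stem-loop search were tested on simulated data. Depth, 8655155 to 12024802 counts, limits genes with few counts, since a count of 0 allows up to 3 counts. All 3 replicates form 1 group, so values are means with SDs and no test was made.

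The members and lists were chosen with earlier results of these data known. All members are accounted for. Values in each replicate are given for all H1 genes, the 4 highest genes of each other type, genes of the pairs printed and genes near 0. Other genes come from lists of histone mRNA factors, replication-independent histones, chaperones and markers, by name or in counts and medians. A further gene is not reported here. Alternatives were other lengths, CPM, unique sequence, count minimums, mitochondrial genes left out, TMM (edgeR 4.0.16), DESeq2 1.42.0 size factors and leaving out each replicate. R 4.3.3 and, in Python 3.11.15, scipy 1.17.1, numba 0.67.0, pandas 2.3.3 and numpy 2.4.6 were used.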

Additional observations from a re-analysis of the deposited data

Results flagged for a closer look

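Among 16 other histone entries with counts, which are no members of the set, 5 had more counts in every replicate than a count of 0 allows. H2BC12L, a protein-coding H2B gene on chromosome 21, had 996, 1095 and 890 counts and a mean of 818 TPM. Of its 50-base stretches 0% are found at a single place, since a second copy of it lies on the same chromosome of the assembly. GENCODE marks the gene at that second copy as an artifact, and it had 0 counts in every replicate. The pseudogene H2BC20P, of which 20.3% is unique, had a mean of 84.0 TPM from 120, 139 and 120 counts. H2AC10P had 38.4 TPM from 36, 33 and 34 counts with all of its sequence unique, H2BC27P had 17.8 TPM from 20, 14 and 18 counts, and H1-12P had 3.34 TPM from 6, 5 and 4 counts. There were no control samples to compare them with.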

How the results depend on the processing

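No paired analysis was possible because there is 1 group of samples. Of 95 alternative values, 57 differed from the reported one by less than the SD between replicates (or, for counts of genes, by less than 1.5 times), and 38 moved further. The 57 include the fall of the high class from 53 to 44 histone genes with CPM. The share of the chromosome 6 cluster was 93.0% with coding length, 94.2% with the canonical transcript, 93.9% with CPM, 98.1% for genes with at least 90% unique stretches and 96.9% over unique sequence. In that order, H1 genes held 15.1%, 16.3%, 24.6%, 21.3% and 18.4%, H2B genes 26.7%, 26.2%, 25.4%, 20.4% and 22.1%, and H3 genes 12.3%, 12.8%, 12.4%, 11.7% and 10.5%. H2A genes held 12.2%, 12.004% and 11.7% under the first 3, and H4 genes held 33.8% with coding length, 25.8% with CPM, 33.9% for genes with unique stretches and 35.9% over unique sequence. The median TPM was 374 with coding length, 540 with the canonical transcript, 781 for genes with unique stretches, 621 over unique sequence, 741 for genes with at least 10 counts and 531 without mitochondrial genes, and the median CPM was 113. The H2B gene was higher in 10 pairs with coding length, 9 with the canonical transcript and 10 with CPM, against 5. These follow from the lengths and genes that each alternative uses. Leaving out replicates moved the median absolute log2 ratio from 0.132 to between 0.0835 (without replicate 3) and 0.173. Depth limits the genes near 0.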
